A study of Mus musculus with 28 samples.

Results

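The genotype by irradiation interaction was measured in bulk RNA of 24 mouse ovary libraries, 6 in each of 4 groups, out of 28 libraries in the study. It is the log2 change after irradiation in wild-type ovaries minus the log2 change after irradiation in *Chek2*-/- ovaries, and it was tested for 26790 of the 44674 genes in the count table. All bulk libraries entered the fit. Wild-type females were C57BL/6J, and *Chek2*-/- females carried the *Chek2*tm1b(EUCOMM)Hmgu allele, in which an exon is deleted in the whole animal. Part of the *Chek2* RNA was still measured in their ovaries, as given below. Genotype and strain background cannot be told apart, because the wild-type animals are not described as littermates. Females about 1 week old received 0.5 Gy of gamma radiation to the whole body (IR) or a sham treatment (0 Gy, non-irradiated), the ovaries were taken 6 h later, and each library held the mRNA of the paired ovaries of 1 animal according to the methods of the study. The remaining 4 libraries are single-cell libraries, 1 for each of the same 4 conditions and each from pooled females, and serve below as a readout from other animals.

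CHEK2 is the kinase that relays the signal of DNA double-strand breaks from ATM to p53 and, in oocytes, to TAp63. Activated p53 family proteins bind a DNA site made of a pair of decamers and raise transcription of genes for cell cycle arrest, apoptosis and repair, and *Mdm2*, one of these targets, encodes the ligase that degrades p53. In the prepubertal ovary most oocytes sit in primordial follicles, which die after small doses of radiation unless CHEK2 is missing. The question of the contrast is therefore gene by gene: how much of the wild-type response is left in ovaries without CHEK2, and whether anything moves there in the other direction.

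The labels held for the targeted gene. *Chek2* (ENSMUSG00000029521) was at 19.8 to 24.6 CPM (median 22.5) in non-irradiated and 18.5 to 23.5 CPM (median 21.3) in irradiated wild-type ovaries. Mutant libraries held 2.88 to 4.44 CPM (median 3.72) without and 3.34 to 4.53 CPM (median 4.05) with IR. Every *Chek2*-/- library lay below every wild-type library, and the interaction of −0.17 (SE 0.14, edgeR adjusted p = 0.826) was not past the threshold. Libraries held 17824920 to 32605519 estimated counts, and 3 counts in 1 library equal 0.092 to 0.168 CPM, the unit of counts scaled to TMM library sizes that is used below. Neutrophil markers summed to 1565 CPM in irradiated wild-type replicate 3 and 1338 CPM in irradiated *Chek2*-/- replicate 2 against 0.209 to 10.2 CPM in the other libraries, and erythroid markers to 10529 CPM in non-irradiated *Chek2*-/- replicate 5 and 7082 CPM in irradiated *Chek2*-/- replicate 2 against 199 to 926 CPM. Oocyte markers were high in all groups, at 3740 to 8704 CPM in sum, lowest in replicate 6 of both *Chek2*-/- groups, at 3740 CPM without and 4306 CPM with IR against at least 6372 CPM in the others. In bulk RNA fewer cells of a type and less RNA per cell cannot be told apart.

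IR changed 167 genes differently in the genotypes, 0.623% of the genes tested, at an adjusted p of at most 0.05 in edgeR's quasi-likelihood test and an interaction of at least 1 on the log2 scale. Of these, 132 (0.493%) had a positive interaction, which means a higher value after IR in wild-type than in *Chek2*-/- ovaries relative to their non-irradiated controls, and 35 (0.131%) a negative one. At the adjusted p alone there were 277 genes (1.03%), and at an unadjusted p under 0.05 there were 2449 (9.14%). Within wild-type ovaries 288 genes (1.08%) passed the same threshold, 230 higher (0.859%) and 58 lower (0.216%) after IR. Within *Chek2*-/- ovaries *Ano3* alone passed it in edgeR (0.00373%), 3 genes (0.0112%) passed the adjusted p alone, 1179 (4.40%) had an unadjusted p under 0.05, and DESeq2 called 9. For 102 of the 132 positive genes all 6 irradiated wild-type libraries lay above the other 18 libraries, against 0.985% of all genes, and for 21 of the 35 negative genes all 6 lay below them, against 0.321%. Libraries of no other group stood apart in this way for any of the 167 genes. The genes were called on these same libraries, so separation of the irradiated wild-type group is drawn in by the call itself. Nothing is read from the comparison with all genes.

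**Figure D1:**
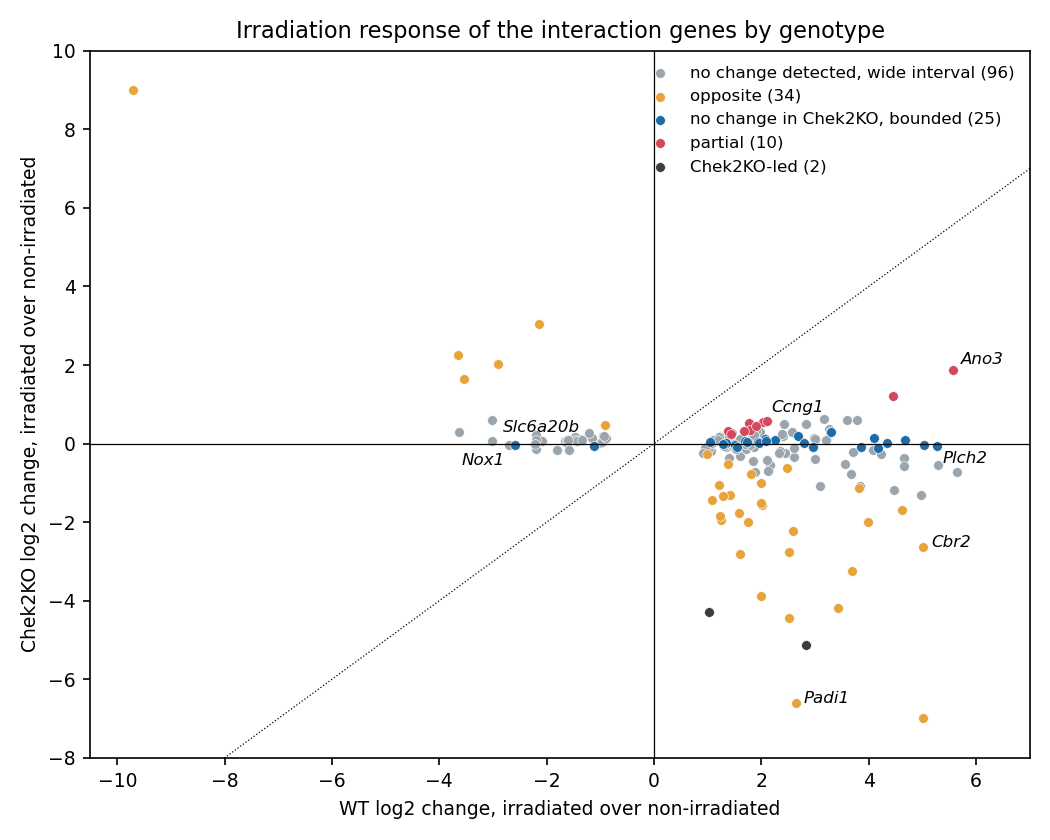
Fitted log2 change after IR in wild-type ovaries (horizontal axis) against that in *Chek2*-/- ovaries (vertical axis) for the 167 genes past the interaction threshold, 1 point per gene colored by response class, with equal changes along the dotted line. Most points lie along the horizontal axis, where the *Chek2*-/- change is near 0, the 10 genes of the partial class lie between the axis and the dotted line, and the 34 genes of the opposite class lie across the axis from the wild-type change.

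A gene can pass the interaction in several ways, so the 167 genes were sorted by the 95% interval of their log2 change in *Chek2*-/- ovaries. In 25 genes that interval included 0 and lay within 25% of the size of the wild-type change, so that a retained change above that size was outside the interval (no change, bounded). In 96 genes it included 0 but was wider (not detected). In 10 it excluded 0 with the sign of the wild-type change and a smaller size (partial), in 34 it excluded 0 with the opposite sign (opposite), and in 2 the *Chek2*-/- change led while the wild-type interval included 0. The interval excluded 0 in 46 of the 167 genes against 4.41% of all genes tested, but the *Chek2*-/- change is a term of the interaction, so the call itself draws in genes with a change there and nothing is read from that share. The classes are a description and carry no test of their own. Over the 167 genes the median change was 1.79 in wild-type and −0.01 in *Chek2*-/- ovaries, and over all genes tested it was 0.00 in both.

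Genes whose response was bounded near 0 without CHEK2 included *Mdm2*, *Trp73* and *Pmaip1* of the p53 response. With 99% intervals *Mdm2* stayed in the class, while *Trp73*, *Pmaip1* and *Dcxr*, which is given below, moved to the not detected class. The 25 genes, 23 with a positive interaction, had a median change of 2.08 in wild-type and 0.02 in *Chek2*-/- ovaries. *Mdm2* (ENSMUSG00000020184), the ligase that turns over p53, was at 77.2 to 85.1 CPM (median 81.2) in non-irradiated and 183 to 229.9 CPM (median 196) in irradiated wild-type ovaries. In the other genotype it was at 85.2 to 91.5 CPM (median 88.8) in non-irradiated and 83.7 to 99.8 CPM (median 87.9) in irradiated *Chek2*-/- ovaries. The irradiated wild-type libraries stood above all others and the *Chek2*-/- libraries overlapped, with changes of 1.33 (SE 0.05) and 0.02 (95% interval −0.09 to 0.13) and an interaction of 1.31 (SE 0.07, edgeR adjusted p = 4.1e-11). *Trp73*, the third member of the p53 family, was at 1.98 to 3.22 CPM (median 2.08) in non-irradiated and 13.6 to 22.5 CPM (median 15.9) in irradiated wild-type ovaries. Without CHEK2 it was at 0.423 to 1.98 CPM (median 1.72) and 0.606 to 2.05 CPM (median 1.59). Its interaction was 2.77 (SE 0.37, edgeR adjusted p = 7.28e-05), and the *Chek2*-/- change was 0.03 (95% interval −0.53 to 0.58). *Pmaip1*, which encodes the BH3-only protein NOXA, had wild-type values of 1.78 to 3.69 CPM (median 2.37) without and 12.7 to 22.6 CPM (median 15.3) with IR. The *Chek2*-/- values, 2.85 to 3.56 CPM (median 3.23) and 2.58 to 4.66 CPM (median 3.67), overlapped each other and stayed below every irradiated wild-type library, giving an interaction of 2.50 (SE 0.26, edgeR adjusted p = 2.01e-06).

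The largest changes of this class were in genes near the detection limit without IR. *Plch2*, a phospholipase C of the eta type, went from 0.202 to 0.664 CPM (median 0.544) to 13 to 31.1 CPM (median 17.3) in wild-type ovaries. It was at 0.497 to 1.09 CPM (median 0.772) in non-irradiated and 0.493 to 0.945 CPM (median 0.763) in irradiated *Chek2*-/- ovaries. The groups without a response overlapped and the irradiated wild-type libraries were all higher, with changes of 5.28 (SE 0.28) and −0.05 (95% interval −0.60 to 0.50) and an interaction of 5.33 (SE 0.38, edgeR adjusted p = 3.87e-09). *Slc6a3*, the dopamine transporter, was at 0.031 to 0.102 CPM (median 0.0579) in non-irradiated and 1.4 to 3.42 CPM (median 1.94) in irradiated wild-type ovaries, and at 0.0369 to 0.115 CPM (median 0.0722) in non-irradiated and 0.0348 to 0.109 CPM (median 0.0731) in irradiated *Chek2*-/- ovaries. Outside irradiated wild-type ovaries its values were around the level of 3 counts in a library, and the interaction was 5.08 (SE 0.53, edgeR adjusted p = 2.29e-06). Among the other genes, *Ifitm10*, of the family of interferon-induced transmembrane proteins, had an interaction of 4.29 (SE 0.33, edgeR adjusted p = 1.66e-08). *Arhgef4*, a guanine nucleotide exchange factor, had one of 1.56 (SE 0.15, edgeR adjusted p = 4.13e-07), and *Dcxr*, which encodes dicarbonyl and L-xylulose reductase, one of 1.65 (SE 0.17, edgeR adjusted p = 2.01e-06). The transcripts *2810029C07Rik*, *9930012K11Rik* and *Ccdc17* had interactions of 3.94, 1.95 and 3.05.

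**Figure D2:**
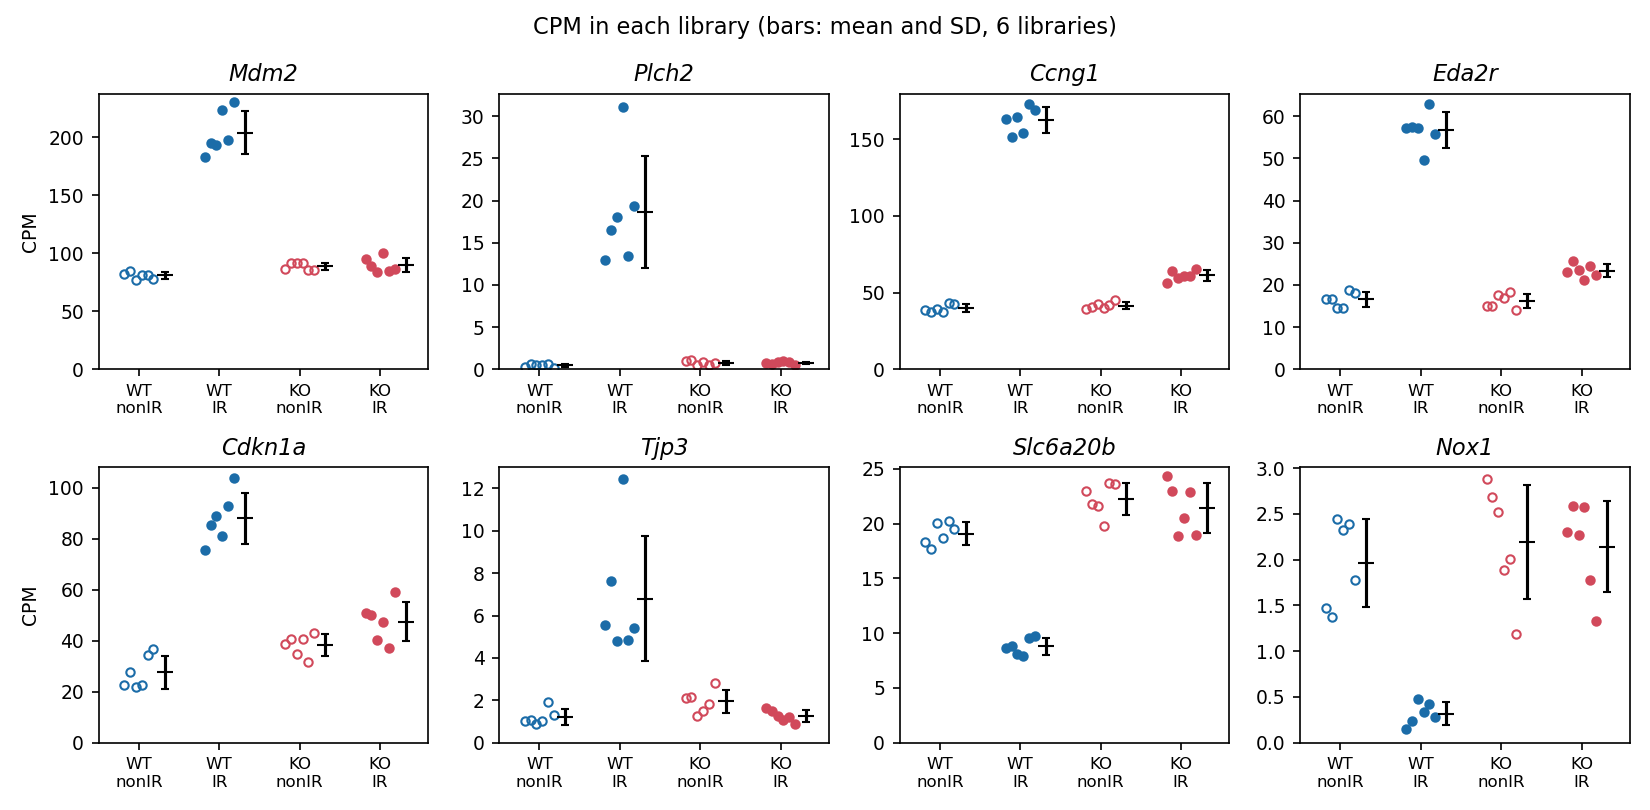
CPM (linear axes from 0) of 8 genes in each of the 24 libraries, 1 point per library, open without and filled with IR, with the group mean and SD as bars, for *Mdm2*, *Plch2*, *Ccng1*, *Eda2r*, *Cdkn1a*, *Tjp3*, *Slc6a20b* and *Nox1*. Irradiated wild-type libraries lie apart from the other 18 in each panel, above them for the first 6 genes and below them for *Slc6a20b* and *Nox1*, while the irradiated *Chek2*-/- libraries of *Ccng1* and *Eda2r* lie above their own controls.

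Genes that kept part of the response without CHEK2 included well-known p53 targets. The partial class held *Ccng1*, *Eda2r*, *Exoc4*, *Inka2*, *Ano3*, *Bbc3*, *Cdkn1a*, *Sesn2*, *Gpr132* and *Ms4a10*, with a median change of 1.84 in wild-type and 0.49 in *Chek2*-/- ovaries. The *Chek2*-/- change was 17.5% to 33.6% of the wild-type change on the log2 scale, with a median of 25.5%. As a share of the rise in CPM it was smaller, from 4.50% for *Ano3* to 17.9% for *Eda2r*, with 16.0% for *Ccng1*, 15.3% for *Cdkn1a* and 13.7% for *Bbc3*, and the order of the genes differed, so the size of the retained part depends on the scale. Of the 10, the *Chek2*-/- change of *Ccng1*, *Eda2r* and *Ano3* passed the adjusted p over all genes in edgeR, DESeq2 added *Exoc4* (adjusted p = 0.0131), and the others are placed by their interval alone. In *Ccng1*, *Eda2r*, *Exoc4*, *Ano3* and *Bbc3* the irradiated *Chek2*-/- libraries lay above all non-irradiated *Chek2*-/- ones, a separation that 0.149% of all genes showed in either direction. The class was placed on that same change, so nothing is read from this share.

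*Ccng1* (ENSMUSG00000020326), cyclin G1, which acts with MDM2 in p53 feedback, had the smallest adjusted p of the contrast. It was at 37.4 to 43.2 CPM (median 38.8) in non-irradiated and 151 to 173 CPM (median 164) in irradiated wild-type ovaries. It was at 39.1 to 45.3 CPM (median 41) in non-irradiated and 56.2 to 65.6 CPM (median 60.8) in irradiated *Chek2*-/- ovaries. All 4 groups but the non-irradiated pair were separate, in the order non-irradiated, irradiated *Chek2*-/-, irradiated wild-type. The changes were 2.03 (SE 0.05) and 0.56 (95% interval 0.46 to 0.66), the second with an edgeR adjusted p of 6.82e-07, so that 27.5% ± 2.46 (SE) of the log2 change was retained, and the interaction was 1.47 (SE 0.07, edgeR adjusted p = 8.12e-13). *Eda2r*, a receptor of the TNF receptor family, was at 14.5 to 18.9 CPM (median 16.6) in non-irradiated and 49.6 to 63 CPM (median 57.2) in irradiated wild-type ovaries. *Chek2*-/- libraries held 14.1 to 18.4 CPM (median 16) without and 21.1 to 25.6 CPM (median 23.3) with IR. Its libraries fell in the same order with the same separation, the *Chek2*-/- change was 0.53 (95% interval 0.37 to 0.69) with an edgeR adjusted p of 0.00427, and 29.8% ± 4.45 (SE) was retained. *Ano3*, a membrane protein of the anoctamin family, was close to the detection limit without IR, at 0.0509 to 0.171 CPM (median 0.108) in wild-type and 0.0383 to 0.148 CPM (median 0.0773) in *Chek2*-/- ovaries. With IR it was at 4.4 to 6.31 CPM (median 5.77) and 0.265 to 0.472 CPM (median 0.308). Its *Chek2*-/- change of 1.87 (95% interval 1.35 to 2.39) had an edgeR adjusted p of 0.00579, the share retained was 33.6% ± 4.73 (SE) on the log2 scale, but 4.50% in CPM, and the irradiated *Chek2*-/- level was far below every irradiated wild-type library.

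*Bbc3*, the gene of the BH3-only protein PUMA, was at 4.42 to 7.26 CPM (median 5.88) in non-irradiated and 18.6 to 27.5 CPM (median 22) in irradiated wild-type ovaries. In mutant ovaries these were 5.53 to 6.43 CPM (median 6.15) and 6.75 to 9.66 CPM (median 8.26). The 6 irradiated *Chek2*-/- libraries lay above their controls and below the irradiated wild-type libraries, with a *Chek2*-/- change of 0.45 (95% interval 0.21 to 0.69) whose edgeR adjusted p was 0.516, and the interaction was 1.44 (SE 0.17, edgeR adjusted p = 8.06e-06). *Exoc4*, a subunit of the exocyst that tethers secretory vesicles, was at 53.2 to 60.9 CPM (median 59) in non-irradiated and 121 to 169 CPM (median 152) in irradiated wild-type ovaries. *Chek2*-/- values were 48.1 to 57.6 CPM (median 53) and 58.7 to 70.9 CPM (median 65.8). Irradiated libraries lay above their own controls in both genotypes, with changes of 1.38 (SE 0.07) and 0.32 (95% interval 0.18 to 0.45) and an interaction of 1.06 (SE 0.09, edgeR adjusted p = 9.4e-08). *Cdkn1a*, which encodes the cell cycle inhibitor p21, was at 22 to 36.6 CPM (median 25.2) in non-irradiated and 75.5 to 104 CPM (median 87.2) in irradiated wild-type ovaries. Without CHEK2 the values were 31.8 to 43 CPM (median 39.7) and 37.3 to 59 CPM (median 48.7). The *Chek2*-/- groups overlapped here, and the non-irradiated *Chek2*-/- level was itself above the wild-type one by 0.47 on the log2 scale (edgeR adjusted p = 0.0308, a limit that 5.34% of all genes passed in that comparison). The shares retained were 18.6% ± 7.6 (SE) for *Cdkn1a*, 20.03% ± 5.65 (SE) for *Inka2*, which encodes an inhibitor of the kinase PAK4, and 17.5% ± 8.23 (SE) for *Sesn2*, a stress-induced sestrin. At the edge of the class, the lower bound of the *Chek2*-/- interval was 0.00 for *Ms4a10* and 0.01 for *Sesn2*, and just outside it lay *Trp53inp1*, a p53-induced nuclear protein, with 0.18 (95% interval −0.01 to 0.37). *Phlda3*, a p53 target that restrains AKT, had a *Chek2*-/- change of 0.35 (95% interval 0.20 to 0.51) but an interaction of 0.85, below the size required.

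**Figure D3:**
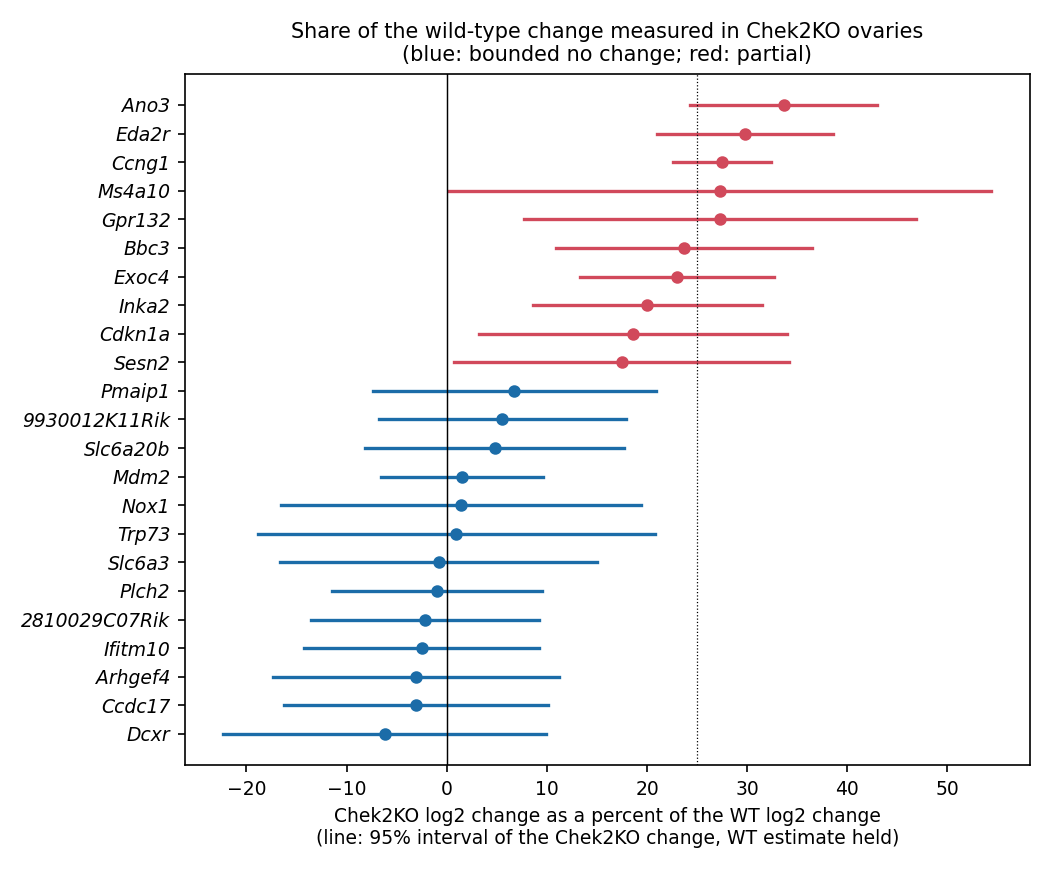
Share of the wild-type log2 change retained in *Chek2*-/- ovaries (percent, points) for the 10 genes of the partial class (red) and 13 of the bounded class (blue), with lines for the 95% interval of the *Chek2*-/- change divided by the wild-type estimate, whose own error is not included. The red points lie between 17.5% and 33.6% with lines above 0%, on the log2 scale that is plotted (4.50% to 17.9% in CPM), and the blue lines include 0% and stay under the dotted mark at 25%.

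Promoter sequence was compared with these classes, since the partial class includes p53 targets. Promoters of 300 bases, from 250 before to 50 after the transcription start, were taken from RefSeq on the build GRCm38.p6 and searched for the p53 site, a pair of decamers with at most 1 base between them, allowing 2 mismatches in all and none in the core C and G of each decamer. The decamer reads as its own reverse complement, so 1 search covers both strands. Of the 167 genes, 116 had a promoter in the table and 7 of these (6.03%) held a site, against 133 of 15692 genes tested (0.848%) and 0.682% of all 32851 promoters. By class they were 4 of 10 partial, 2 of 20 bounded, 1 of 66 not detected and 0 of 20 opposite genes, and 0 of the 21 negative genes. A gene with several promoters counted if any held a site, and the start named below is that of the matching promoter. The 10 partial genes had 15 promoters, and which start the ovary uses was not examined. A match is a description of the letters in this window and does not show binding, and sites outside it, where many p53 sites lie, were not searched. The sites of the partial genes and of *Trp73* and *Mst1* are shown because they are the matches that lie before the start, each with 20 bases on either side, on the strand of the gene, with the site in capitals. *Gpr132*, *Ms4a10* and *Mst1* were singled out for these sites after their values had been seen.
Ccng1 (chr11:40755442-40755501, minus strand, 175 bases before the start): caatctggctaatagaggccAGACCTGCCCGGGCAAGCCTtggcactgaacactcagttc
Cdkn1a (chr17:29090908-29090967, plus strand, 31 bases before the start): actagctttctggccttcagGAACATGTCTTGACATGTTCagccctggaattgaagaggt
Gpr132 (chr12:112861060-112861119, minus strand, 163 bases before the start): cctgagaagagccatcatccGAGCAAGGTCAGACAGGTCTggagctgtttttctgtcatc
Ms4a10 (chr19:10974761-10974820, minus strand, 80 bases before the start): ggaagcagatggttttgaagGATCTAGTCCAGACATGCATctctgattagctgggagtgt
Trp73 (chr4:154097200-154097259, minus strand, 46 bases before the start): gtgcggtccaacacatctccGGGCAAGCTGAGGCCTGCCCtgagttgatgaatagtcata
Mst1 (chr9:108080334-108080393, plus strand, 62 bases before the start): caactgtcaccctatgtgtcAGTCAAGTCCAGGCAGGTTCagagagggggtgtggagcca
Of these sites those of *Ccng1* and *Cdkn1a* had 1 mismatch and the other 4 had 2. The remaining match, in *1700007K13Rik* of the bounded class, had 1 mismatch and 1 base between the decamers, and it is not shown because it lies after the start, within the transcript. *Gpr132*, a G protein-coupled receptor, was at 0.248 to 0.376 CPM (median 0.299) in non-irradiated and 4.78 to 10.4 CPM (median 6.67) in irradiated wild-type ovaries, and at 0.0737 to 0.461 CPM (median 0.26) in non-irradiated and 0.182 to 1.44 CPM (median 0.412) in irradiated *Chek2*-/- ovaries, with 27.3% ± 9.78 (SE) retained. *Ms4a10*, of a family of membrane-spanning proteins, had an interaction of 1.53 (SE 0.38, edgeR adjusted p = 0.0463) that passed the threshold in 5 of 24 fits with 1 library left out. *Mst1*, which encodes a secreted growth factor of the liver, had an interaction of 2.84 (SE 0.55, edgeR adjusted p = 0.00553).

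The opposite class held *Tjp3*, *Nectin4*, *Cbr2* and *Padi1*, and its size depended on single libraries. Of its 34 genes 28 had a positive interaction. Over the class the median change was 1.78 in wild-type and −1.54 in *Chek2*-/- ovaries, no *Chek2*-/- change passed the adjusted p over all genes in edgeR (the smallest was 0.484), and 16 of the 34 were under 1 CPM in every group. DESeq2 passed the *Chek2*-/- change of 5 of the 34, namely *Padi1*, *Wfdc2*, *Slc44a4* and the unnamed genes ENSMUSG00000096912 and ENSMUSG00000107260, which are also 5 of its 9 calls within *Chek2*-/- ovaries. *Tjp3*, which encodes the tight junction scaffold ZO-3, was at 0.865 to 1.91 CPM (median 1.06) in non-irradiated and 4.8 to 12.4 CPM (median 5.5) in irradiated wild-type ovaries. Mutant libraries were at 1.26 to 2.84 CPM (median 1.97) and 0.872 to 1.63 CPM (median 1.24). Irradiated wild-type libraries were above all others, the *Chek2*-/- groups overlapped, and the changes were 2.48 (SE 0.25) and −0.63 (95% interval −1.14 to −0.12) with an interaction of 3.10 (SE 0.35, edgeR adjusted p = 6.83e-06). *Nectin4*, an adhesion molecule, was at 0.0447 to 0.509 CPM (median 0.26) in non-irradiated and 2.59 to 6.39 CPM (median 3.16) in irradiated wild-type ovaries. Without CHEK2 these were 0.344 to 0.845 CPM (median 0.361) and 0.112 to 0.341 CPM (median 0.195). Its irradiated *Chek2*-/- libraries lay below their controls, with a change of −1.13 (95% interval −1.99 to −0.27), and the interaction was 4.95 (SE 0.57, edgeR adjusted p = 9.11e-06). *Cbr2*, a carbonyl reductase, was at 0.0474 to 0.957 CPM (median 0.233) in non-irradiated and 7.29 to 16.2 CPM (median 10.7) in irradiated wild-type ovaries. *Chek2*-/- libraries were at 0.0765 to 3.46 CPM (median 0.345) and 0 to 0.216 CPM (median 0.147). The highest non-irradiated *Chek2*-/- value belonged to replicate 6, and the interaction was 7.66 (SE 1.03, edgeR adjusted p = 7.49e-05). *Mcidas*, the regulator of multiciliated cells, had a *Chek2*-/- change of −1.99 (95% interval −3.50 to −0.49). At the edge of the class was *Fgf7*, a growth factor that acts on epithelia, with a *Chek2*-/- change of −0.52 (95% interval −1.02 to −0.01), and just outside it was *Fermt1*, which encodes the integrin-binding protein kindlin-1, with −1.18 (95% interval −2.40 to 0.04).

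*Padi1*, an enzyme that converts arginine to citrulline in stratified epithelium, had one of the larger interactions of this class. It was at 0.0895 to 10.6 CPM (median 0.221) in non-irradiated and 0.28 to 59.2 CPM (median 11.7) in irradiated wild-type ovaries. In the other genotype it was at 0.155 to 44.7 CPM (median 5.12) in non-irradiated and 0.0719 to 0.209 CPM (median 0.109) in irradiated *Chek2*-/- ovaries. The groups overlapped, with a wide spread in all but the irradiated *Chek2*-/- libraries, which were uniformly low, and the interaction of 9.23 (SE 1.99, edgeR adjusted p = 0.0164) came with a wild-type change whose edgeR adjusted p was 0.357. The interaction was called in DESeq2 (adjusted p = 9.61e-06) and without the library of each group highest in oviduct and uterine markers (edgeR adjusted p = 0.0195). It was not called in limma-voom (adjusted p = 0.531) or with those markers, described next, as a covariate, where it was 3.68 (edgeR adjusted p = 0.64). Summed over the 28 positive genes, the level was 19.7 to 42.8 CPM in non-irradiated and 58.6 to 159 CPM in irradiated wild-type ovaries, 21.6 to 157 CPM in non-irradiated *Chek2*-/- ovaries, where replicate 6 was highest and the next was 56.6 CPM, and 15.2 to 17.99 CPM in irradiated *Chek2*-/- ovaries. The 7 markers of oviduct and uterine epithelium, a tissue next to the dissected ovary, summed to 10.3 to 17.1, 12.3 to 25.7, 11.8 to 28.3 and 11.2 to 18 CPM in the same groups, and non-irradiated *Chek2*-/- replicate 6 was again highest. None of the 7 was called, but all 7 interactions were above 0 with a median of 0.99, and *Wnt7a* passed the threshold within wild-type ovaries, at 0.949 to 1.68 CPM without and 2.52 to 4.76 CPM with IR, so the markers moved with the contrast for which they serve as a covariate. *Foxa2* was the single one at 0 in some library of every group. Across the 24 libraries, within groups, the correlation of a gene with these markers had a median of 0.48 over the class and 0.00 over the 26620 genes that were not called, points that share libraries and depth. With the markers as a covariate 9 of the 116 genes called were in the class, and 19 without non-irradiated *Chek2*-/- replicate 6, 19 without irradiated wild-type replicate 1 and 18 without irradiated *Chek2*-/- replicate 5. *Tjp3*, *Nectin4* and *Cbr2* passed the interaction threshold in every fit with 1 library left out. In the fits that used the markers, the opposite *Chek2*-/- change was less stable for *Tjp3*. For *Tjp3* it was −0.50 with the covariate and −0.41 without the library of each group highest in the markers, with intervals that included 0, while *Nectin4*, at −0.89 and −1.07, and *Cbr2*, at −1.58 and −1.34, stayed in the class. With 99% intervals *Tjp3* and *Nectin4* left the class and *Cbr2* stayed. With intervals on the CPM scale *Cbr2* moved to the bounded class, and *Tjp3* and *Nectin4* stayed. The irradiated *Chek2*-/- values of *Cbr2* were around the level of 3 counts in a library. The part of adjacent epithelium in the class was not otherwise tested.

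**Figure D4:**
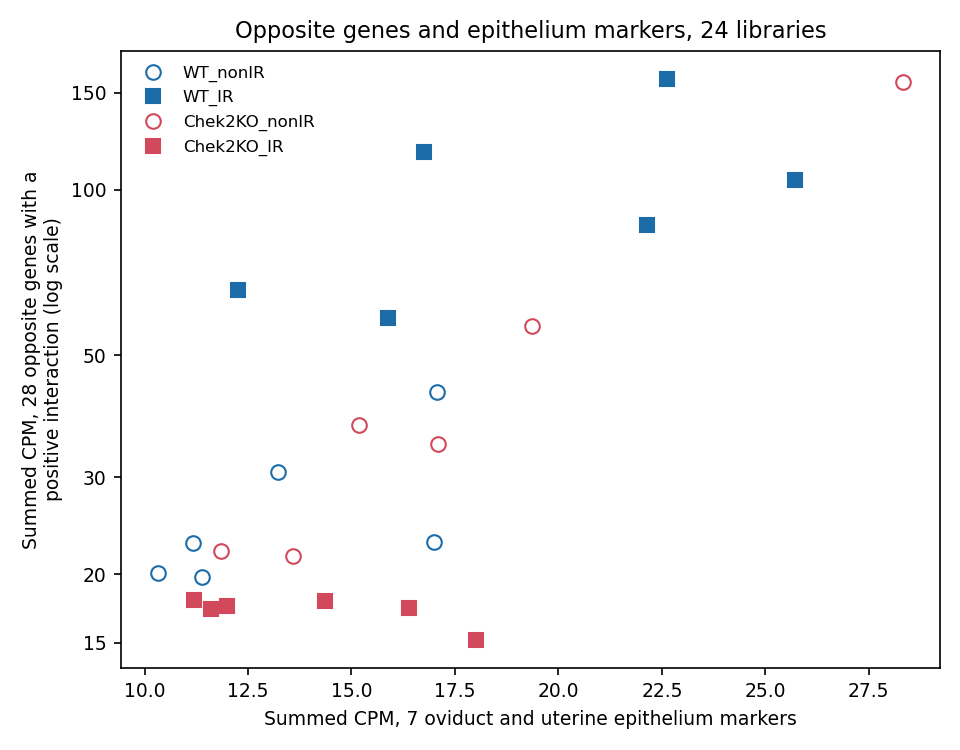
Summed CPM of the 28 positive genes of the opposite class (vertical axis, log scale) against the summed CPM of the 7 oviduct and uterine epithelium markers (horizontal axis) in the 24 libraries, colored by group. Non-irradiated *Chek2*-/- replicate 6 lies farthest to the right and near the top at 157 CPM, and the 6 irradiated *Chek2*-/- libraries lie at the bottom between 15.2 and 17.99 CPM.

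Both genes in which the *Chek2*-/- change led were highest in non-irradiated *Chek2*-/- replicate 6. *Slc14a1*, a urea transporter, was at 0.313 to 4.58 CPM (median 2.89) in non-irradiated and 0.0352 to 11.7 CPM (median 4.8) in irradiated wild-type ovaries. Mutant values were 1.99 to 13.9 CPM (median 4.11) and 0.0348 to 0.744 CPM (median 0.187). The irradiated *Chek2*-/- libraries were all below their controls while the wild-type groups overlapped, and the interaction was 5.31 (SE 1.05, edgeR adjusted p = 0.00708). *Fut9*, a fucosyltransferase, was at 0 in at least 1 library of every group and at 7.49 CPM in non-irradiated *Chek2*-/- replicate 6, the other libraries of that group reaching 0.423 CPM. Its interaction of 7.95 (SE 1.86, edgeR adjusted p = 0.0307) passed the threshold in 13 of 24 fits with 1 library left out, and limma-voom called neither gene while DESeq2 called both (adjusted p = 0.000221 for *Slc14a1* and 0.00104 for *Fut9*). Within groups *Slc14a1* and *Fut9* correlated with the oviduct and uterine markers at 0.71 and 0.70. With those markers as a covariate neither was called, at 3.43 and 2.13 (edgeR adjusted p = 0.169 and 0.779). Without the library of each group highest in the markers their edgeR adjusted p were 0.0341 and 0.0412.

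All 35 genes with a negative interaction had a wild-type change below 0, 25 of them passed the threshold as lower after IR, and most were at low levels. For 28 of them every group mean was under 5 CPM, and 20 carry predicted or clone names. Summed over the 35, the level was 83.8 to 123 CPM in non-irradiated and 38.5 to 48.0 CPM in irradiated wild-type ovaries, against 81.9 to 145 CPM and 108 to 139 CPM in *Chek2*-/- ovaries, so that irradiated wild-type libraries were all below the rest. *Slc6a20b* (ENSMUSG00000025243), an amino acid transporter of the same family as *Slc6a3*, was at 17.7 to 20.2 CPM (median 19.1) in non-irradiated and 7.9 to 9.76 CPM (median 8.76) in irradiated wild-type ovaries. It was at 19.8 to 23.7 CPM (median 22.4) in non-irradiated and 18.9 to 24.3 CPM (median 21.7) in irradiated *Chek2*-/- ovaries. Only the irradiated wild-type libraries were apart, the *Chek2*-/- change of −0.05 (95% interval −0.20 to 0.09) was bounded, and the interaction was −1.06 (SE 0.10, edgeR adjusted p = 4.13e-07). *Nox1*, an NADPH oxidase, was at 1.38 to 2.44 CPM (median 2.05) in non-irradiated and 0.148 to 0.48 CPM (median 0.309) in irradiated wild-type ovaries, and at 1.19 to 2.88 CPM (median 2.27) in non-irradiated and 1.33 to 2.59 CPM (median 2.28) in irradiated *Chek2*-/- ovaries, again with only the irradiated wild-type libraries apart and an interaction of −2.55 (SE 0.35, edgeR adjusted p = 9.16e-05). *Frmpd1*, *Rims1*, which organizes the zone of vesicle release at synapses, and *Fam19a1*, a secreted chemokine-like protein, had interactions of −1.31, −1.15 and −1.47. *Pnma5*, *4732465J04Rik*, *Gm8941* and *Gm17767* had −2.16, −1.64, −2.42 and −2.05, and *Gm14243*, which was under 1 CPM in every library, −3.94. Salmon shares reads among similar transcripts and no source used here gives the use of strand in counting, so values of predicted loci that copy or overlap other genes are uncertain. The most negative fitted value, −18.72 for the unnamed gene ENSMUSG00000107260, is no measure of size, since it was at 0 in all libraries of 2 groups, and it passed in 6 of 24 fits with 1 library left out.

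Over the gene lists, positive calls fell in the p53 lists, in adhesion and in metabolism. All 7 adhesion calls below, *Cbr2*, *Dcxr* and *Ak1* of the metabolism list, and *Mdm2*, *Trp73*, *Ccng1*, *Trp53inp1*, *Cdkn1a*, *Eda2r*, *Pmaip1* and *Bbc3* of the p53 lists are genes that the study names from these samples, so those counts are not independent evidence. The study also lists *Btg2*, *Pidd1* and *Ephx1* among the top genes of its p53 gene set in these samples, so the same holds for them. Of 13 genes of the p53 family and its feedback 4 were called, all positive, with a median interaction of 0.38 over the list beside 0.00 over all genes tested, of which 0.493% were called positive, the background for each of these lists. *Trp53inp1* was among them at 1.04 (SE 0.13, edgeR adjusted p = 2.7e-05), with wild-type values of 44.1 to 57.7 CPM (median 49.5) and 110.4 to 130.4 CPM (median 115) that did not overlap. Of 14 cell cycle brakes 2 were called (median 0.27), *Cdkn1a* and the antiproliferative factor *Btg2*, whose interaction was 1.13 (SE 0.20, edgeR adjusted p = 0.00224). *Gtse1*, which is made in G2 and S phase, passed the adjusted p at 0.80 but not the size. Of 25 apoptosis genes 4 were called (median 0.20), *Eda2r*, *Pmaip1*, *Bbc3* and *Pidd1*, and *Bax*, *Ei24*, *Apaf1* and *Tnfrsf10b* passed the adjusted p with interactions of 0.36 to 0.48.

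Of 18 p53-linked metabolism and redox genes 5 were called (median 0.57), namely *Dcxr*, *Cbr2*, *Ephx1*, *Sesn2* and *Ak1*. Of 25 adhesion and junction genes 7 were called (median 0.30). Besides *Tjp3*, *Nectin4* and *Fermt1* these were the desmosomal plakophilin *Pkp3* at 2.93 (SE 0.37, edgeR adjusted p = 3.64e-05), the basement membrane protein *Hmcn2* at 1.68, *Itgb7*, an integrin chain of leukocytes, at 1.93, and the kindlin *Fermt3* at 3.01 (SE 0.53, edgeR adjusted p = 0.00206). *Fermt3* reached 8.91 CPM in irradiated *Chek2*-/- replicate 2, one of the libraries high in neutrophil markers, against 1.24 to 2.24 CPM in the others of that group. The 13 membrane and signaling genes that the study names were chosen on these samples, so their 12 positive calls (median 3.69) are not independent evidence. *Nlrp6*, the exception, had −2.19.

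Other lists had no call. None of 18 damage sensors and kinases was called or passed the adjusted p, and their interactions ran from −0.22 to 0.05. *Atm*, the kinase upstream of CHEK2, was at 59.9 to 74.1 CPM (median 67.9) in non-irradiated and 57.4 to 80.7 CPM (median 67.6) in irradiated wild-type ovaries. Mutant values were 71.4 to 78.3 CPM (median 74) and 76.7 to 82.6 CPM (median 80.2). Groups with and without IR overlapped in each genotype, and the interaction was −0.12 (SE 0.08, edgeR adjusted p = 0.772). Irradiated *Chek2*-/- libraries lay above all non-irradiated wild-type ones. Between irradiated genotypes *Atm* differed by 0.25 (edgeR adjusted p = 0.00836, a limit that 2636 genes passed in that comparison). Of 10 genes of p53-linked repair and nucleotide supply none was called, and *Polk*, a translesion polymerase, passed the adjusted p at 0.64 (SE 0.11, edgeR adjusted p = 0.00106). The 28 interferon response genes had no call, with a median change of 0.54 in wild-type and 0.47 in *Chek2*-/- ovaries. Their summed level had a median of 427 CPM without and 616 CPM with IR in wild-type ovaries. In *Chek2*-/- ovaries the medians were 426 and 419 CPM, and the highest irradiated library reached 1326 CPM. *Rtp4* and *Oas1a*, both induced by interferon, were highest in irradiated *Chek2*-/- replicate 6, at 14.1 and 6.29 CPM, and their interactions of 0.95 and 1.44 had edgeR adjusted p of 0.647 and 0.741. Without that library the interaction of Rtp4 was 1.54 and the interaction of Oas1a 2.88 (edgeR adjusted p = 0.0782 and 0.0557), and without non-irradiated wild-type replicate 5 they were 1.45 and 2.46 (edgeR adjusted p = 0.212 and 0.323). Both passed, at 2.05 and 3.80 (edgeR adjusted p = 0.000437 and 0.00074), when the library of each group highest in oviduct and uterine markers was left out, which removes both of these libraries, and the *Chek2*-/- changes were then −0.21 and −0.74. The 18 immediate early genes (median 0.27) and 13 cholesterol synthesis genes (median 0.12) had none either. *Egr1*, an early growth response factor, was at 81.9 to 158 CPM (median 118) in non-irradiated and 137 to 188 CPM (median 172) in irradiated wild-type ovaries. In mutants it was at 164 to 395 CPM (median 241) and 125 to 339 CPM (median 240.2). Non-irradiated *Chek2*-/- libraries were all above their wild-type controls for *Egr1*, by 1.16 on the log2 scale (edgeR adjusted p = 0.00409), and its interaction of 0.66 had an edgeR adjusted p of 0.512. None of the 16 oocyte, 9 granulosa, 7 stromal, 5 steroidogenic, 6 surface epithelium, 7 endothelial, 8 macrophage, 6 neutrophil, 7 erythroid, 7 smooth muscle, 5 adipocyte, 5 skeletal muscle, 7 oviduct and uterine or 8 dividing-cell markers was called. The single marker past the adjusted p was *Sohlh1*, a transcription factor of primordial oocytes. Its interaction was −0.88 (edgeR adjusted p = 0.0131).

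Passing in wild-type ovaries did not imply passing the interaction. Of the 288 wild-type calls 135 were among the 167 genes, and 153 were not. All 153 had an interaction of the same sign as the wild-type change, with a median interaction of 1.46 and a median SE of 0.62. Of them 131 had an unadjusted edgeR p under 0.05, against 9.14% of all genes tested. The wild-type change is a term of the interaction, so the wild-type call itself draws in that sign, size and p. Nothing is read from them. Their median change in *Chek2*-/- ovaries was 0.11, and their median highest group mean was 0.808 CPM. Of the 153, 3 passed the adjusted p of the interaction in edgeR without the size, and 34 passed the threshold in DESeq2 and 24 in limma-voom. With a median SE of 0.62, missing the edgeR threshold does not show that these genes respond alike in the genotypes. *Lhx3*, a homeodomain factor, had no count in any non-irradiated wild-type library and 0.889 to 2.58 CPM (median 1.63) after IR. Set against 3 counts over the 6 libraries, it was at least 78.0-fold higher. In *Chek2*-/- ovaries at most 0.037 CPM was found. EdgeR did not call the interaction (adjusted p = 0.0953), and DESeq2 and limma-voom did. The same held for *Ankrd65*, an ankyrin repeat gene, at 0 to 0.0895 CPM (median 0.0492) in non-irradiated and 3.63 to 7.06 CPM (median 4.3) in irradiated wild-type ovaries and at 0 to 0.0369 CPM (median 0) in non-irradiated and 0 to 0.106 CPM (median 0.0186) in irradiated *Chek2*-/- ovaries, with an edgeR adjusted p of 0.154.

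The single-cell libraries show in which cells these differences were seen. UMIs were summed per library over barcodes with oocyte transcripts, meaning a UMI of at least 5 of 10 oocyte genes, and over all other barcodes. There were 370 and 189 oocyte barcodes in non-irradiated and irradiated wild-type and 89 and 185 in *Chek2*-/- ovaries, with median depths of 42779.5, 22830, 141379 and 71943 UMIs. The other barcodes numbered 8987 to 10156 with medians of 14115 to 17587 UMIs. With 1 library per condition there is no test, intervals are exact Poisson intervals at 95% that cover counting error only, doublets and free RNA were not removed, and 16 to 36 barcodes were shared by a pair of libraries. Of 111 positive genes with at least 20 UMIs, 95 (85.6%) had a wild-type change at least 2-fold above the *Chek2*-/- change in oocyte barcodes, against 7.81% of all genes there. In the other barcodes they were 45 of 107 (42.1%) against 3.79%. UMIs for this filter were summed over all single-cell libraries, so a gene could pass through irradiated wild-type alone. *Plch2*, for one, had 488 of its 496 UMIs in oocyte barcodes there. The filter thus draws in such differences, and nothing is read from the distance of these shares to those of all genes. Of the negative genes 8 of 20 (40.0%) were at least 2-fold lower in oocyte barcodes, against 15.2% of all genes, and 3 of 13 in the others, against 4.18%. Over all kept barcodes they were 18 of 23 (78.3%), against 7.22% of all genes. Oocyte barcodes made up 3.83% and 1.83% of those kept in non-irradiated and irradiated wild-type and 0.979% and 2.02% in *Chek2*-/- libraries. The part of this share in the difference was not tested. In non-irradiated wild-type ovaries 18 of 19 negative genes (94.7%) were at least 2-fold higher in oocyte than in other barcodes, against 23.8% of all genes and 45.8% of 96 positive ones.

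The retained change of *Ccng1*, *Cdkn1a* and *Exoc4* was larger in the other barcodes than in the oocyte barcodes, and that of *Bbc3*, *Sesn2* and *Ms4a10* was not. For *Ccng1* the oocyte barcodes held, in CPM of UMIs, 25.6 (23.9 to 27.3) without and 79.4 (74.9 to 84.1) with IR in wild-type, and 27.1 (24.3 to 30.2) without and 28.6 (26.3 to 31.1) with IR in *Chek2*-/-. The *Chek2*-/- intervals overlapped. In the other barcodes *Ccng1* was at 15.6 (15 to 16.2) and 65.3 (64.1 to 66.5) in wild-type, and 15.3 (14.8 to 15.9) and 21 (20.4 to 21.7) in *Chek2*-/-, where the intervals of both genotypes were apart. *Cdkn1a* was at 6.63 (6.24 to 7.04) and 83.6 (82.3 to 85) in wild-type, and 4.71 (4.39 to 5.05) and 8.85 (8.43 to 9.28) in *Chek2*-/- in the other barcodes, a *Chek2*-/- log2 change of 0.91, and at 33.9 (32 to 35.9) without and 182 (175 to 189) with IR in wild-type, and 42.7 (39.1 to 46.5) without and 48.3 (45.3 to 51.5) with IR in *Chek2*-/- in oocyte barcodes, where the change was 0.18. *Exoc4* was at 36.1 (35.2 to 37.1) and 90.7 (89.3 to 92.1) in wild-type, and 34.1 (33.2 to 35) and 42.9 (41.9 to 43.8) in *Chek2*-/- in the other barcodes, and its *Chek2*-/- change there was 0.33 against 0.09 in oocyte barcodes. Its wild-type response was smaller in oocyte barcodes too, from 38.2 (36.1 to 40.3) to 54.8 (51 to 58.7), a log2 change of 0.52. *Eda2r* and *Inka2* had changes of 0.52 and 0.60 in the other barcodes and of 0.35 and −0.33 in oocyte barcodes, the latter on 7 and 15 UMIs without and with IR for *Eda2r* and 3 and 4 for *Inka2*, too few to order the barcodes. In the other barcodes *Ano3*, which had under 20 UMIs in oocyte barcodes, had a change of 1.22. *Bbc3* went the other way, with 0.04 in the other barcodes, where the intervals overlapped, and 0.15 in oocyte barcodes. *Sesn2* had 0.30 in the other and 0.31 in oocyte barcodes, and *Ms4a10* had −0.03 and 0.16. Over the class the median *Chek2*-/- change was 0.39 over 10 genes in the other barcodes and 0.15 over 9 in oocyte barcodes, a difference between cells of single libraries that was not tested. The 9 include *Eda2r* and *Inka2* with few UMIs, and *Gpr132*, whose −0.70 is the value that equal UMI numbers in both *Chek2*-/- libraries give.

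Of the bounded genes 19 of 23 (82.6%) were past 2-fold in oocyte barcodes and 8 of 21 (38.1%) in the others, shares with the same limit from the filter. *Mdm2* was, in CPM of UMIs, at 72.3 (69.5 to 75.2) without and 769.6 (755 to 784) with IR in wild-type, and 72.5 (67.8 to 77.5) without and 75.2 (71.4 to 79.1) with IR in *Chek2*-/- in oocyte barcodes. In the other barcodes it was at 35.8 (34.9 to 36.7) and 54.3 (53.2 to 55.4) in wild-type, and 34.1 (33.2 to 35) and 35.6 (34.8 to 36.5) in *Chek2*-/-, so that the irradiated wild-type level was raised in both and far more in oocyte barcodes. Not all bounded genes were flat in *Chek2*-/- barcodes. *Dcxr* was at 7.17 (6.78 to 7.59) without and 10.2 (9.78 to 10.7) with IR in the other *Chek2*-/- barcodes, a log2 change of 0.51 that is above that of *Ccng1* there. In oocyte barcodes *Pmaip1* went from 5.89 (4.61 to 7.42) to 2.37 (1.74 to 3.16) and *Arhgef4* from 2.86 (1.99 to 3.98) to 4.95 (4.02 to 6.03) in *Chek2*-/- libraries, with intervals apart. *Plch2* was at 0.114 (0.0311 to 0.292) without and 33.2 (30.4 to 36.3) with IR in wild-type, and 0.164 (0.0198 to 0.591) without and 0.101 (0.0122 to 0.365) with IR in *Chek2*-/- in oocyte barcodes, and *Trp73* at 0.856 (0.578 to 1.22) without and 30.5 (27.8 to 33.5) with IR in wild-type, and 1.06 (0.566 to 1.82) without and 1.72 (1.19 to 2.4) with IR in *Chek2*-/-. *Slc6a20b*, of the negative genes, was at 23.4 (21.9 to 25.1) without and 11.5 (9.84 to 13.4) with IR in wild-type, and 29 (26.1 to 32.2) without and 28.4 (26.1 to 30.9) with IR in *Chek2*-/- in oocyte barcodes, and at 1.31 (1.14 to 1.5) and 1.3 (1.14 to 1.48) in wild-type, and 1.33 (1.16 to 1.52) and 1.11 (0.963 to 1.27) in *Chek2*-/- in the others, where the intervals overlapped. Other negative genes varied in oocyte barcodes. The wild-type change minus the *Chek2*-/- change was −0.28 for *Frmpd1*, −0.18 for *Rims1* and −0.31 for *Fam19a1*. It was −2.08 for *Pnma5*, −1.44 for *4732465J04Rik*, −1.41 for *Gm17767* and −3.30 for *Gm14243*. The median over 20 negative genes was −0.38. For the opposite class, which holds genes of both signs, the median *Chek2*-/- change over 19 genes in oocyte barcodes was 0.26 and became −0.22 when a UMI of at least 7 of the 10 oocyte genes was required. In the other barcodes it was 0.05 over 19 genes and over all barcodes −0.09 over 24, so no direction is read from these sums. *Tjp3*, *Nectin4* and *Cbr2* were at 20.9, 19.8 and 101 CPM in irradiated wild-type oocyte barcodes and at 0 to 2.86 in those of both *Chek2*-/- libraries. Looser or stricter selection of oocyte barcodes, by 4 or 7 genes, gave 85.8% and 87.3% for the positive genes. For the negative genes it gave 28.6% of 21 against 18.3% of all genes with 4, and 45% of 20 against 8.98% with 7, so that their share stood closer to the background under the looser selection.

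**Figure D5:**
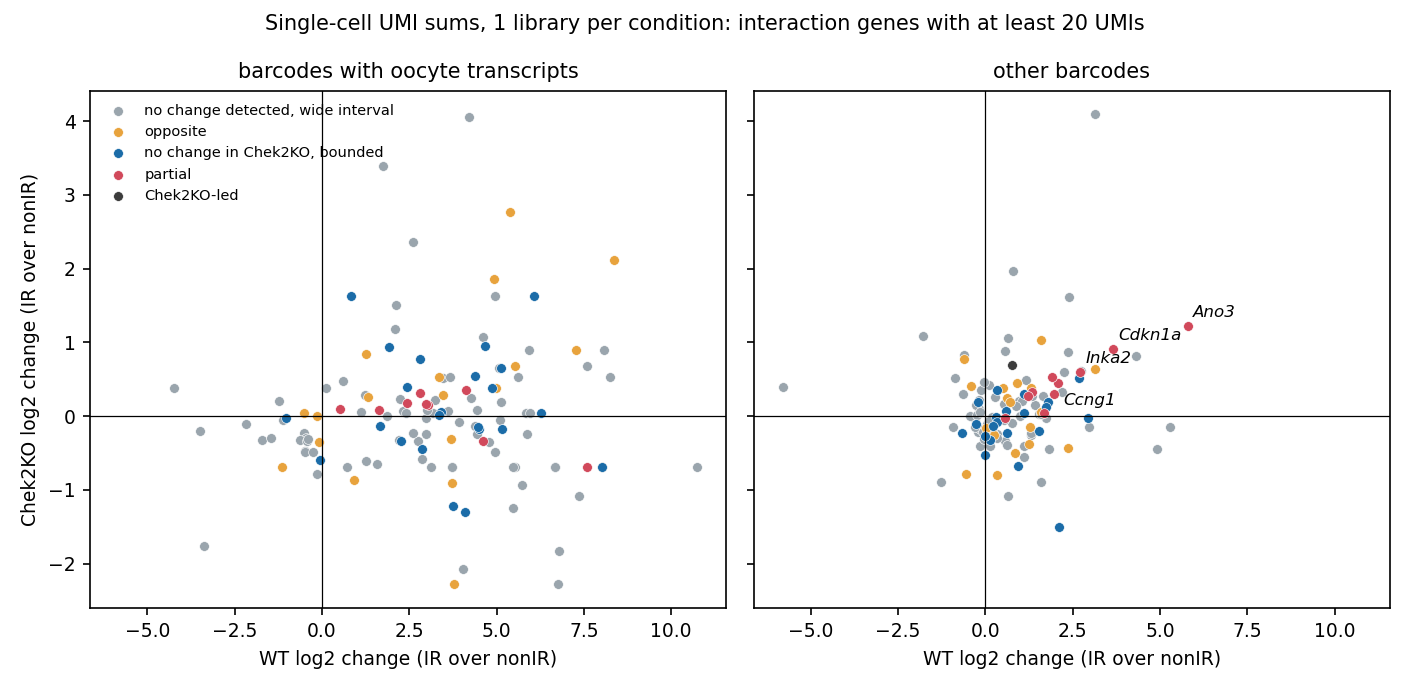
Log2 change after IR in the single-cell sums of wild-type (horizontal axis) and *Chek2*-/- (vertical axis) ovaries for called genes with at least 20 UMIs, in oocyte barcodes and in other barcodes, colored by response class. The partial genes, in red, have a median *Chek2*-/- change of 0.15 in oocyte barcodes and of 0.39 in the other barcodes. The lowest in oocyte barcodes is *Gpr132* at −0.70. Equal UMI numbers in both *Chek2*-/- libraries give that value at their unequal totals, so it is not read as a fall.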

How the data were processed

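Bulk RNA of 24 ovary samples (paired ovaries, 6 per group) was analyzed, with groups and replicate numbers from the labels. The authors used the nf-core/rnaseq workflow and Salmon 1.3.0 (Ensembl transcripts per the methods, mm10 per the labels) and deposited estimated counts per gene, unscaled, of which 38.1% are not whole. The reads are paired-end, and no source used here gives strand use. Single-cell files hold whole UMI counts, which the authors deposited from Cell Ranger with mm10.

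Estimated counts were rounded, genes with under 10 counts over 24 libraries left out, and the rest fitted in edgeR 4.0.16 (R 4.3.3) with TMM factors and 1 coefficient per group. Contrasts were tested by quasi-likelihood with Benjamini-Hochberg adjustment. DESeq2 1.42.0, limma-voom (limma 3.58.1), other scalings, filters, a replicate block and leaving out each library were alternatives. The fit was also run on simulated data, whose outcome is not used here. Depth was 17824920 to 32605519 counts, and same-group libraries differed by 6.25 to 60.5 times counting error (chi-square per degree of freedom), so the spread between animals sets the precision. Symbols came from GENCODE (44118 IDs) and the single-cell gene list (34), and 522 IDs had none. Single-cell barcodes with at least 1000 genes and at most 20% mitochondrial and 50% ribosomal UMIs were summed per library, with 0.5 added for log ratios. Of the 167 called genes 149 were matched there.

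Named genes were *Chek2*, the 10 smallest adjusted p in each direction, the 5 largest and 5 smallest interactions at a mean of 1 CPM or more in 1 group, up to 8 each of the partial, opposite and knockout-led classes, up to 3 per pathway list, and genes the study names. Members, lists and rules were chosen with earlier results of these data known. Genes named beyond the rule as members of a list or class, or for a promoter site, were chosen after their values were seen.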

Additional observations from a re-analysis of the deposited data

Results flagged for a closer look

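The change after IR differed between the genotypes for 167 genes by the interaction test. Within groups of 6, single libraries lay apart from the other 5 by Dixon's criterion in 27 of 232 combinations of named gene and group. Chance gives about 1 in 20 for independent values with a normal spread. These values are CPM and the combinations share libraries, so that rate need not hold and no excess is read. Non-irradiated *Chek2*-/- replicate 6 was high for *Cbr2* (3.46 CPM), *Fermt1* (3.88), *C8a* (2.42), *S100g* (5.30), *Pkp3* (2.27), *Fut9* (7.49) and *Slc14a1* (13.9) and low for the damage sensors *Mdc1* (138) and *Rnf8* (58.9), and it was also the library highest in oviduct and uterine markers and lowest in oocyte markers. Replicate 5 of that group was high for *Apol8* (1.37 CPM). Irradiated wild-type replicate 4 was high for *Plch2* (31.1 CPM), *Tjp3* (12.4), *Arhgef4* (33.9), *9930012K11Rik* (30.4) and *Frmpd1* (6.27), and irradiated wild-type replicate 1 for *Padi1* (59.2). Irradiated *Chek2*-/- replicate 6 was high for the interferon genes *Rtp4* (14.1 CPM) and *Oas1a* (6.29) and low for *Gm17767* (1.86), and replicate 2 was high for *Fermt3* (8.91). Non-irradiated wild-type replicate 5 was high for *Rtp4* (8.58 CPM), *Oas1a* (2.63) and *Fgf7* (0.855), replicate 1 for *Cyp51* (79.1) and *Idi1* (38.1) and replicate 6 for *Gm8941* (0.849), and replicate 2 was low for *Dcxr* (4.84).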

How the results depend on the processing

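The 167 interaction calls became 166 or 167 with the other scalings, 161 and 167 with the other filters, 163 with a robust prior, 179 in limma-voom, 231 in DESeq2 and 138 to 184 with each library left out, and 120 of the 167 were called in all 24 of those fits. With the adjusted p alone there were 277. Replicate numbers were not taken to pair the samples, since no source says what they mark and same-numbered libraries of different groups had correlated deviations from −0.20 to 0.69 (median 0.08) with 14 of 36 over 0.1 and 11 highest for their own number. Between the *Chek2*-/- groups, whose difference sets the classes, they ran from 0.05 to 0.69, with 5 of 6 over 0.1 and 4 of 6 highest for their own number, a hint of shared numbers from the data and not the design. With the replicate block 147 were called. *Padi1*, *Fut9*, *S100g* and ENSMUSG00000107260 were not among them (edgeR adjusted p = 0.0886, 0.0718, 0.108 and 0.127). Alternatives chosen after seeing the data left 116 (marker covariate) and 164 (without the 4 libraries highest in those markers). The wild-type count was 646 by adjusted p alone and 241 to 327 with libraries left out. The *Chek2*-/- count was 9 in DESeq2, 3 by adjusted p alone and 0 to 2. Between genotypes without IR, 211 genes became 81 in DESeq2, 117 with the covariate, 1430 by adjusted p alone and 96 to 288, and with IR there were 2636 by adjusted p alone and 510 to 691 with libraries left out. The 25 bounded genes became 12 with a 99% interval, 104 with a bound of 50% (17 then not detected), 70 on the CPM scale and 22 to 26 with libraries left out. The not detected class ran from 80 to 114 and the partial class from 7 to 11, and was 3 if the *Chek2*-/- adjusted p had to pass. The 34 opposite genes became 21 in limma-voom, 19 with the block, 9 with the covariate, 19 without the 4 libraries, 15 at 99%, 10 on the CPM scale, 0 by *Chek2*-/- adjusted p in edgeR (DESeq2 passed 5) and 18 to 41 with libraries left out. The 2 genes led by *Chek2*-/- became 1 under either filter, with the block and without the 4 libraries, 8 in DESeq2, 9 at 99%, 0 with the covariate or by adjusted p, and 0 to 3. Causes were not tested. Of 68 named genes 55 kept their side of the adjusted p of 0.05 in every setting that gave a value, up to 34 each. No interaction changed sign. *C8a*, *Padi1*, *S100g*, *Fut9*, *Slc14a1* and ENSMUSG00000107260 lost the adjusted p in at least 1 setting. *Ankrd65*, *Lhx3*, *Ercc5*, *Idi1*, *Msmo1*, *Oas1a* and *Rtp4* gained it in at least 1. The size was not part of this comparison. With the marker covariate the interaction of *Exoc4* fell to 0.97, below the size required, and that of *Gtse1* rose to 1.05, above it.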
